A study of Mus musculus with 11 samples.

Results

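The genes that copy DNA and supply its nucleotides were followed in EGFP-labeled intermediate progenitors (IPs) of Tbr2 conditional knockout cortex, from embryonic day 13 (E13) to E16. The group holds 42 genes, listed by gene symbol with earlier results of these data known. A probe of 37 of them was detected on all arrays, among 8967 genes with such a probe and a single symbol. Each gene is represented by its brightest such probe.

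IPs are the progenitors of the subventricular zone of the embryonic cortex, which arise from radial glia and divide to give excitatory neurons, and TBR2, the product of Eomes, is the transcription factor that marks them. To copy its genome in S phase, a cell first licenses its origins: the origin recognition complex, Cdc6 and Cdt1 load the ring-shaped MCM helicase. The helicase is then fired by Cdc45 and GINS, primase and polymerases build the strands, a sliding clamp holds the polymerases in place, and enzymes such as ribonucleotide reductase keep up the supply of deoxynucleotides. Many of these genes are targets of the E2F factors and are transcribed most around the start of S phase.

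The study collected IPs by FACS from the cortex of Tbr2 conditional knockout (cKO) mice, which combined floxed Tbr2 alleles (Tbr2 fl/fl) with the Tbr2-EGFP reporter, and measured total RNA on Illumina bead arrays. In its cortical knockouts the study used Emx1-Cre, which is active in dorsal telencephalic progenitors and their descendants. There were 5 arrays at E13 and 6 at E16, which the methods call biological replicates and take from 3 litters that are not assigned to arrays. Every sample used here had the same genotype and reporter, so stage was the only comparison made, and no control IPs were analysed here. Eomes itself was seen by 2 probes, with means of 2534 ± 172 and 1217 ± 211 (normalized signal, SD, n = 5) at E13 and 1951 ± 558 and 757 ± 322 (SD, n = 6) at E16. The sources used here do not say whether these probes lie in the deleted part of the gene, and no check of the knockout was drawn from them.

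Between 19757 and 20854 of 45281 probes were detected per array (detection p under 0.05). On the log2 scale, arrays of one stage correlated with each other at 0.954 to 0.985 and arrays of different stages at 0.931 to 0.969. Of 10 IP markers on the array, 9 were detected on every array, and their summed signal was 33758 to 44873 at E13 and 19530 to 39291 at E16. All 9 neuron markers were detected on every array, with sums of 47495 to 57307 at E13 and 44260 to 60785 at E16. Radial glial markers (9 to 10 of 10 detected) summed to 4573 to 7426 at E13 and 3011 to 4148 at E16. Array 64 at E13 held the highest sums of erythroid genes (6 of 6 detected, 28441 against a median of 406 at E13), interneuron genes (9 of 9 detected, 4027 against 418), radial glial genes (7426 against 5117) and endothelial and pericyte genes (9 of 12 detected, 642 against 238). Array 97 stood out in the same way at E16, with 7840 for erythroid genes (4 of 6 detected) against a median of 1328 and 1011 for interneuron genes (6 of 9 detected) against 442. Microglial markers stayed near background, with 1 to 5 of 8 detected at E13 and 1 to 2 of 8 at E16. The highest count and sum were again those of E13 array 64 (5 of 8 detected, 239 against a median of 140 at E13). The part of these other cells in the stage differences was not tested, and since RNA was measured in bulk, fewer cycling cells and less RNA per cell cannot be told apart.

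Transcripts of 15 of the 37 tested genes fell from E13 to E16, 0 rose, and 22 did not pass, where a call required more than a 1.5-fold change at an adjusted p under 0.05 (limma, Benjamini-Hochberg over all 16411 tested probes). The background for a lower call was 6.09% of all tested probes, and for a higher call 5.17%. At an unadjusted p under 0.05, 29 of the 37 were lower and 0 higher, against 16% and 15.5% of all tested probes. All 37 log2 fold changes were below 0, against 48.8% of all probes, and their median was -0.55 beside 0.0094 over all probes. In 15 of the 37, every E16 array lay below every E13 array (6.34% of all probes). These were not all the called genes: 11 were called, and the other 4 (Mcm4, Rfc2, Rfc5 and Rpa1) changed by less than 1.5-fold. Rfc5 also missed the threshold on the adjusted p (0.089 by limma).

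The 5 genes with the largest falls were Cdc45, Mcm10, Rrm2, Tk1 and Lig1, with log2 fold changes of -1.31, -1.22, -1.16, -1.11 and -0.92. The lower calls were spread over the steps of replication, with 2 of 3 tested licensing genes, 4 of 10 helicase genes, 2 of 5 primase and polymerase genes, 1 of 3 single-strand binding genes, 2 of 3 genes of Okazaki fragment processing, 3 of 5 nucleotide supply genes and 1 of 2 chromatin assembly genes. None of the 6 clamp and clamp loader genes was called by limma, although 2 of them had an adjusted p under 0.05 and 3 an unadjusted p under 0.05.

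**Figure D1:**
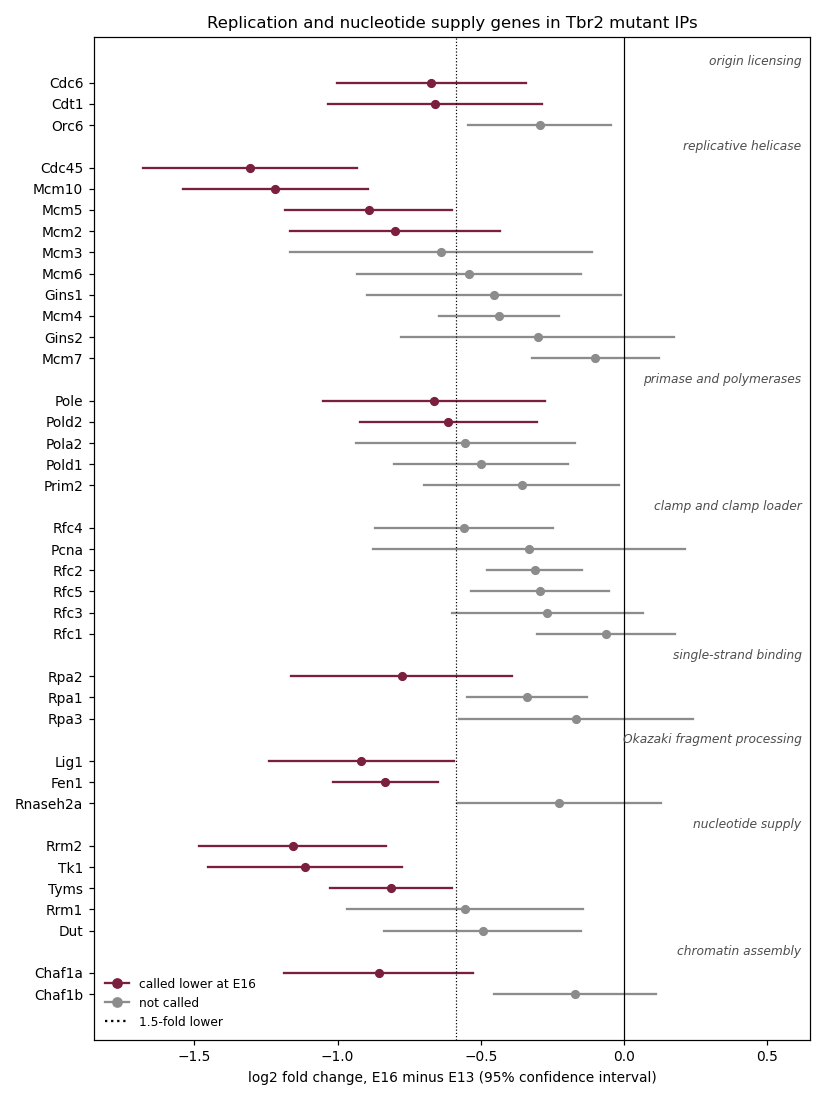
Stage change of the 37 tested genes, grouped by role. Points are log2 fold changes (E16 minus E13) with 95% confidence intervals from limma, dark where called lower (15 genes) and grey where not called (22 genes); the dotted line marks 1.5-fold. All points lie left of 0, from -1.31 for Cdc45 to -0.063 for Rfc1.

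The upstream sequences of some of these genes are shown because E2F factors and the CCAAT-binding NF-Y complex act at promoters of this class, and because windows of called and uncalled genes can then be read side by side. RefSeq start sites (GRCm38.p6) were available for 35 of the 42 genes in a table of 27025. Gmnn, Mcm4, Gins1, Gins2, Prim2, Pole and Rfc2 were not matched. In the 250 bases before each start, on either strand, a search was made for an E2F motif in 4 spellings (TTTCCCGC, TTTCGCGC, TTTGCCGC and TTTGGCGC), for the CCAAT box (CCAAT) and for the CHR element (TTTGAA), a motif of genes that peak late in the cell cycle. A gene with several starts in the table was counted where any of its windows held the motif. The E2F motif was found for 7 of the 35 genes (20%) and 2.16% of all genes, the CCAAT box for 22 (62.9%) and 37.5%, and the CHR element for 4 (11.4%) and 18.3%. Among matched genes the E2F motif was found for 2 of 14 called lower and 3 of 17 tested and not called, the CCAAT box for 8 of 14 and 11 of 17. The 4 genes with a CHR match (Mcm2, Cdc45, Pold2 and Fen1) were all called lower, 4 of 14 (28.6%) against 0 of 17. The windows printed are those of the 4 called genes with the lowest adjusted p (Fen1, Tyms, Mcm10 and Rrm2), then that of Rfc1, whose log2 fold change was nearest 0. Capitals mark matches, read in the direction of transcription, and a match is a description of the letters, not a binding site.
Fen1: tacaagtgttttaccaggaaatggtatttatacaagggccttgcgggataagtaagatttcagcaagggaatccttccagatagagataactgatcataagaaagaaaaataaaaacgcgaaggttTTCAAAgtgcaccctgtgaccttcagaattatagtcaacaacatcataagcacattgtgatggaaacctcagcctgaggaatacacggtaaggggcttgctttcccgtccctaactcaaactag
Tyms: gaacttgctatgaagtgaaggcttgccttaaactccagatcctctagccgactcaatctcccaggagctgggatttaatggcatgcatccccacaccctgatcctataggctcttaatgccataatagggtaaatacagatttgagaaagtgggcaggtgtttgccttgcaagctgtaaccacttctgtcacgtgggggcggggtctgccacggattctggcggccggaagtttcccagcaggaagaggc
Mcm10: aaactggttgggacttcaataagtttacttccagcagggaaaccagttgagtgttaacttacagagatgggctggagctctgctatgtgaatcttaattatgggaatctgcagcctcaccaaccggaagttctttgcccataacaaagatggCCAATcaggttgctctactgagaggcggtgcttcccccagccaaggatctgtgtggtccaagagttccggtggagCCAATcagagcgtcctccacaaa
Rrm2: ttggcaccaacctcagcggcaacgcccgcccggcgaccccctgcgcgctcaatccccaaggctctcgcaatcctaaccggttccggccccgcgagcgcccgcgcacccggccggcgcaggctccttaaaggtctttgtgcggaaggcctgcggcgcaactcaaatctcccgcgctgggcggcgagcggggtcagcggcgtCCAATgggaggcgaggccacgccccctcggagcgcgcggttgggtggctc
Rfc1: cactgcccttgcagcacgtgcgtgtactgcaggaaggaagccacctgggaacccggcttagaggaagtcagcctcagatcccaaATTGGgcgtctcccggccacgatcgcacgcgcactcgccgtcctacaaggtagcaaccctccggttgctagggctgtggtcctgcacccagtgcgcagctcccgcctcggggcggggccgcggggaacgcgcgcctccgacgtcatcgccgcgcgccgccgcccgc

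These windows lie at chr19:10204394-10204643 (minus strand) for Fen1, chr5:30073626-30073875 (minus strand) for Tyms, chr2:5012792-5013041 (minus strand) for Mcm10, chr12:24708004-24708253 (plus strand) for Rrm2 and chr5:65335640-65335889 (minus strand) for Rfc1. Fen1 holds 1 CHR element on the reverse strand, Mcm10 holds 2 CCAAT boxes and Rrm2 and Rfc1 hold 1 each, that of Rfc1 reversed. The Tyms window holds no match. The Rfc1 window lies wholly inside the annotated span of the gene, which begins further upstream than the start site in the table, and 20 bases of the Tyms window lie inside its gene. None of the 5 windows holds an E2F spelling. To show that motif, the windows of a called and an uncalled ring subunit, Mcm5 and Mcm6, were added after the matches were seen.
Mcm5: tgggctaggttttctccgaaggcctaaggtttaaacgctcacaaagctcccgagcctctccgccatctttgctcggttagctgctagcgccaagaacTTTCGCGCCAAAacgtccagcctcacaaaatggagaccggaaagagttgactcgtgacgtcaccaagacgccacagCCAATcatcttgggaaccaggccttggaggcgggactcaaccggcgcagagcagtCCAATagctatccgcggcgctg
Mcm6: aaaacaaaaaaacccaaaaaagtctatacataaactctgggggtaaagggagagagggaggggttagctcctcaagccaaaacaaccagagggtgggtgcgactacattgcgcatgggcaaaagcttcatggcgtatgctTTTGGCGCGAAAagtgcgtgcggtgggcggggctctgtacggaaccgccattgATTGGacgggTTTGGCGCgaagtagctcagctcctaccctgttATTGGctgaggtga

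They lie at chr8:75109259-75109508 (plus strand) and chr1:128359706-128359955 (minus strand), the last 41 bases of the Mcm5 window inside the annotated gene. In Mcm5, an E2F match on each strand overlaps the other to form the capital run of 12 letters, and 2 CCAAT boxes follow. In Mcm6, a pair of overlapping E2F matches on opposite strands forms a run of the same length, a separate E2F match follows, and the 2 CCAAT boxes are reversed. Mcm5 and Mcm6 were picked because both hold an E2F match. This pair therefore cannot show whether the motif goes with the call.

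Of the 3 tested licensing genes, Cdc6 and Cdt1 were lower at E16 and Orc6 was not called. For each gene, normalized signals at E13 are given in the order of arrays 37, 40, 61, 64 and 65, and those at E16 as the lowest, median and highest of 6 arrays. Cdc6, the ATPase that recruits the helicase to origins, read 294, 214, 182, 226 and 249 at E13 and 111, 149.8 and 167 at E16 (log2 fold change -0.67, SE 0.15, adjusted p = 0.0081). Every E16 array was below every E13 array. Cdt1, its partner in helicase loading, read 744, 439.8, 473, 567 and 620.1 at E13 and 283, 352 and 472 at E16 (log2 fold change -0.66, SE 0.17, adjusted p = 0.018). Its groups overlapped, because the highest E16 array exceeded E13 array 40. Orc6, a subunit of the origin recognition complex and the brightest licensing gene not called, read 1766, 2218, 2191, 1703 and 2150.3 at E13 and 1329, 1675 and 1895 at E16 (log2 fold change -0.29, SE 0.12, adjusted p = 0.096), with overlapping groups in which E13 arrays 37 and 64 were the low ones. Without E13 array 37, the highest E13 array for Cdc6 and Cdt1, Cdc6 was at -0.58 (adjusted p = 0.027) and Cdt1 at -0.56 (adjusted p = 0.054), and neither was called.

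Orc1, the largest subunit of the origin recognition complex, and Gmnn, which encodes the Cdt1 inhibitor geminin, had no probe detected on all arrays. The better Orc1 probe was detected on 2 of 5 E13 and 0 of 6 E16 arrays, and the Gmnn probe on 1 of 5 and 0 of 6. No level or direction was read from them.

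The replicative helicase held the 2 largest falls among the 37 genes. Cdc45, which joins the MCM ring when an origin fires, read 576, 373, 427, 540.3 and 451 at E13 and 136, 189 and 250.1 at E16 (log2 fold change -1.31, SE 0.17, adjusted p = 1.5e-04). The lowest E13 array stood well above the highest E16 array. Mcm10, needed to switch the loaded helicase on, read 737, 508, 576, 637 and 726 at E13 and 207, 274 and 355 at E16 (log2 fold change -1.22, SE 0.15, adjusted p = 8.3e-05), again without overlap. A dimmer Mcm10 probe fell too (-1.44, adjusted p = 0.0017).

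Of the 6 ring subunits, Mcm2 and Mcm5 were called. Mcm5 read 2602, 1896, 1988, 2308 and 2288 at E13 and 905, 1239.9 and 1487 at E16 (log2 fold change -0.89, SE 0.14, adjusted p = 4.8e-04), with no overlap. Mcm2 read 909, 696, 649, 826 and 812 at E13 and 305, 435 and 683 at E16 (log2 fold change -0.80, SE 0.17, adjusted p = 0.0051). Its groups overlapped through E16 array 95 alone, which rose above E13 array 61. Mcm4, the brightest helicase gene not called, read 2347, 2031, 2092, 1957 and 2275 at E13 and 1261, 1665 and 1749 at E16. Its groups did not overlap, and it missed the call by size (log2 fold change -0.44, SE 0.098, adjusted p = 0.0069). Mcm3 was at -0.64 with E13 values from 105 to 275, and Mcm6 at -0.54. Neither passed over all arrays (adjusted p = 0.090 and 0.055). Mcm3 was called without E13 array 40 at -0.80 (adjusted p = 0.037), and Mcm6 without E13 array 61 at -0.64 (adjusted p = 0.036), without E16 array 11 at -0.60 (adjusted p = 0.044) and without E16 array 95 at -0.66 (adjusted p = 0.015).

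Mcm7, the remaining ring subunit, read 1022, 868, 892, 942 and 1030.4 at E13 and 796, 859 and 1128 at E16, and the groups overlapped over most of their range (log2 fold change -0.099, SE 0.10, adjusted p = 0.55, 95% confidence interval -0.32 to 0.12). To test whether subunits differed in stage change, the log2 signal of each subunit was set against the mean of the other 5 on the same array, and the 6 resulting contrasts, with Rrm2 against Rrm1 and Chaf1a against Chaf1b, were compared between stages by exact two-sided permutation tests (462 splits of the arrays, 8 contrasts chosen after the values were seen). Mcm7 rose relative to its partners by 0.56 (adjusted exact p = 0.012), higher on every E16 array than on any E13 array. Mcm5 fell by 0.39 relative to its partners (adjusted exact p = 0.013), with 1 E16 array inside the E13 range. The contrast was -0.28 for Mcm2 (adjusted exact p = 0.052), 0.16 for Mcm4, -0.086 for Mcm3 and 0.033 for Mcm6, none past the threshold. That of Mcm2 passed without E16 array 95, at -0.34, or array 97, at -0.32 (adjusted exact p = 0.038 for each). The result for Mcm7 belongs to its brightest probe. Another, dimmer Mcm7 probe was itself called lower (-0.69, adjusted p = 0.013), and with the mean over a gene's probes the contrast dropped to 0.27 (adjusted exact p = 0.13).

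Gins1 and Gins2, subunits of the GINS complex that completes the active helicase, were at -0.45 (95% confidence interval -0.90 to -0.010) and -0.30 (-0.78 to 0.17). Neither was called. The dimmer Gins2 probes were at -0.57 (adjusted p = 0.097) and -0.55 (adjusted p = 0.11), also not called. Gins1 was called without E13 array 64, its low E13 array, at -0.61 (adjusted p = 0.049).

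**Figure D2:**
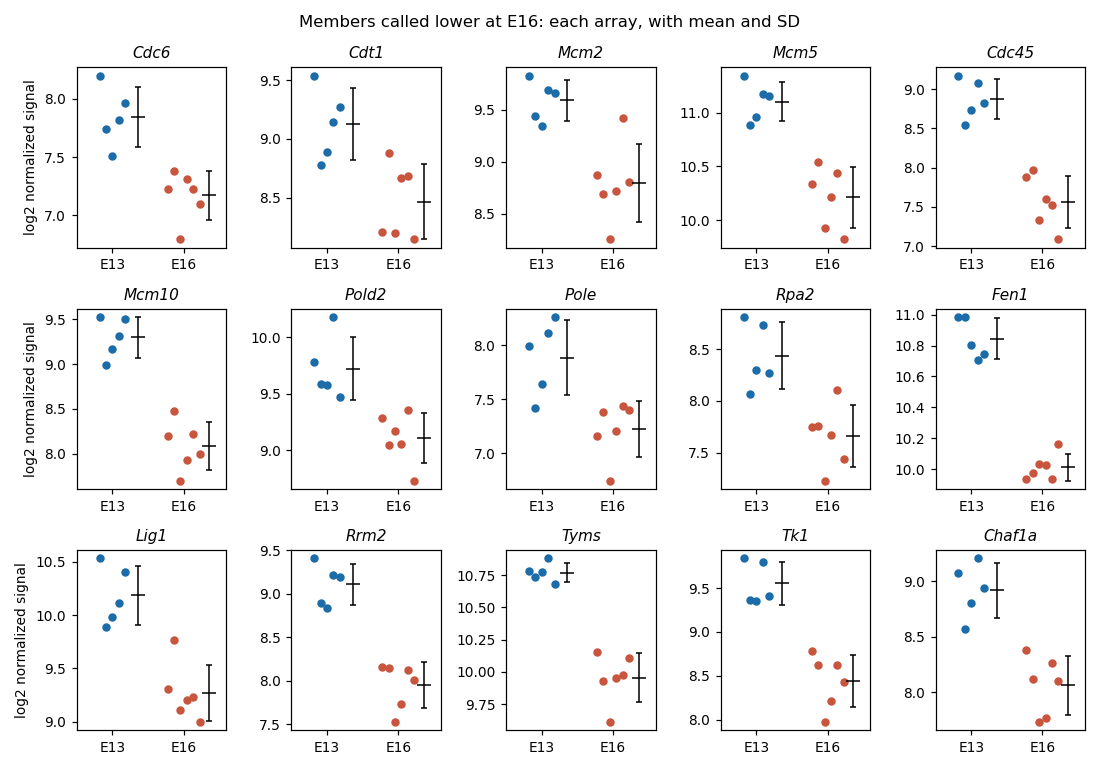
The 15 genes called lower at E16, one panel each. Points are single arrays (5 at E13 in blue, 6 at E16 in red) on a log2 scale of normalized signal whose range differs between panels, and bars give the mean and SD. The stages are apart in 11 panels and overlap in those of Cdt1, Mcm2, Pole and Rpa2.

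Among primase and polymerases, Pold2 and Pole were called. Pold2, an accessory subunit of polymerase delta, which copies the lagging strand, read 882, 771, 765, 1159 and 712 at E13 and 426, 555 and 657 at E16 (log2 fold change -0.61, SE 0.14, adjusted p = 0.0091). The groups did not overlap, and E13 array 64 was the highest. Pole, the catalytic subunit of the leading-strand polymerase epsilon, read 255, 171, 199, 277 and 308 at E13 and 107, 157 and 174 at E16 (log2 fold change -0.66, SE 0.18, adjusted p = 0.021), with an overlap through E13 array 40. Pold1, the catalytic subunit of polymerase delta and the brightest uncalled gene of the class, read 1046, 562, 775, 853 and 871 at E13 and 506, 572 and 654 at E16 (log2 fold change -0.50, SE 0.14, adjusted p = 0.025). E13 array 40 alone lay within the E16 range. Pola2, the accessory subunit of polymerase alpha, was at -0.55 (adjusted p = 0.045), and Prim2, the large primase subunit, at -0.36 (95% confidence interval -0.70 to -0.017).

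Several calls in this class turned on single arrays. Pold2 was not called without E13 array 64, at -0.50 (adjusted p = 0.021), or without E16 array 97, at -0.54 (adjusted p = 0.017). Pole was not called without E13 array 37, at -0.63 (adjusted p = 0.054), array 64, at -0.61 (adjusted p = 0.054), or array 65, at -0.57 (adjusted p = 0.055), or without E16 array 80, at -0.56 (adjusted p = 0.042). Without E13 array 40, Pold1 and Pola2 were called, at -0.63 (adjusted p = 0.0027) and -0.68 (adjusted p = 0.015). Pola1, the catalytic subunit of polymerase alpha, and Pole2, a subunit of polymerase epsilon, were detected on none of the 11 arrays. Prim1, the catalytic primase subunit, was detected on 5 of 5 E13 and 5 of 6 E16 arrays, so it was not tested. Its deposited signals were 30.9, 39.6, 33.4, 63.0 and 48.1 at E13 and 11.2 to 55.8 at E16, and with signals floored at 16 its log2 fold change was -0.34 (adjusted p = 0.39).

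No gene of the sliding clamp and its loader was called, and their median log2 fold change, -0.30, was the nearest to 0 of the 8 roles. Pcna, the clamp that tethers the polymerases, read 441, 382, 245, 411 and 267 at E13 and 155, 287 and 417 at E16 (log2 fold change -0.33, SE 0.25, adjusted p = 0.40, 95% confidence interval -0.88 to 0.21). The groups overlapped, and the interval still holds a fall of more than 1.5-fold. Rfc2, a loader subunit and the brightest gene of the class, read 2401, 2097, 2096, 2349.6 and 2161 at E13 and 1638, 1781 and 1937 at E16. Its groups did not overlap, but the change was small (log2 fold change -0.31, SE 0.077, adjusted p = 0.012), and its 3 other tested probes lay between -0.45 and -0.35, each with an adjusted p under 0.05 and under 1.5-fold. Rfc5 was at -0.29, also without overlap, and Rfc3 at -0.27. Rfc1, the large loader subunit, read 369, 336, 338, 313 and 394 at E13 and 302, 327 and 392 at E16 (log2 fold change -0.063, SE 0.11, adjusted p = 0.75, 95% confidence interval -0.30 to 0.18), an interval that does not reach 1.5-fold. Rfc4 was the nearest of the loader genes to a call, at -0.56 (adjusted p = 0.016), just under 1.5-fold. It was called without E13 array 37, at -0.60 (adjusted p = 0.023), E13 array 64, at -0.62 (adjusted p = 0.017), E16 array 15, at -0.63 (adjusted p = 0.0089), or E16 array 97, at -0.60 (adjusted p = 0.017).

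Of the subunits of replication protein A, which coats unwound single-stranded DNA, only the middle one was called. Rpa2 read 449, 268, 315, 426 and 309 at E13 and 150.1, 210.0 and 275 at E16 (log2 fold change -0.78, SE 0.18, adjusted p = 0.0085). The groups overlapped through E16 array 95. Another Rpa2 probe was also called (-0.76, adjusted p = 0.012), while the dimmest of its 3 probes was at 0.52 (adjusted p = 0.32), and with the mean over these probes Rpa2 was at -0.34 (adjusted p = 0.17). Rpa1, the large DNA-binding subunit, read 2623, 2228, 2259, 2385 and 2475 at E13 and 1609, 1885 and 2192 at E16, without overlap but with a change under 1.5-fold (log2 fold change -0.34, SE 0.098, adjusted p = 0.028). Rpa3 was at -0.17 (95% confidence interval -0.58 to 0.24), with E16 array 95 far above the other E16 arrays.

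Okazaki fragment processing held 2 called genes of 3. Fen1, the flap endonuclease that trims the ends of lagging-strand fragments, had the lowest adjusted p of the 37 genes. It read 2028, 2024, 1788, 1668 and 1715 at E13 and 979, 1023 and 1149 at E16 (log2 fold change -0.83, SE 0.086, adjusted p = 2.1e-05), and the stages were far apart relative to the spread within them. Lig1, the ligase that seals the fragments, read 1483, 947, 1009, 1111 and 1357 at E13 and 511, 596 and 868 at E16 (log2 fold change -0.92, SE 0.15, adjusted p = 8.5e-04), without overlap. Of its 4 tested probes, 3 were called lower and the dimmest was at -0.067 (adjusted p = 0.83). Rnaseh2a, the catalytic subunit of the RNase that removes RNA from RNA-DNA hybrids, read 478, 366, 326, 386 and 342 at E13 and 222, 349.9 and 409.7 at E16. Its groups overlapped and it was not called (log2 fold change -0.23, SE 0.17, adjusted p = 0.38).

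Nucleotide supply fell at 3 of its 5 genes. Rrm2, the small subunit of ribonucleotide reductase, which turns ribonucleotides into deoxyribonucleotides, read 679, 474, 455, 592 and 585 at E13 and 184, 268 and 285 at E16 (log2 fold change -1.16, SE 0.15, adjusted p = 1.4e-04). Tk1, the thymidine kinase of the salvage route, read 917, 659, 652, 890.4 and 682 at E13 and 251, 369 and 438 at E16 (log2 fold change -1.11, SE 0.16, adjusted p = 2.7e-04). Tyms, the thymidylate synthase of the de novo route, read 1756, 1701, 1754, 1886 and 1640.1 at E13 and 783, 1001 and 1139 at E16 (log2 fold change -0.81, SE 0.10, adjusted p = 7.8e-05). In all 3 genes every E16 array was below every E13 array, and E16 array 80 was the lowest. The E13 level was above the E16 level of the kinase and the synthase by 2.16-fold and 1.76-fold. Dimmer tested Tyms probes were at -0.99 (adjusted p = 4.4e-04) and -0.47 (adjusted p = 0.17).

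Rrm1, the large reductase subunit and the brightest uncalled gene of the class, read 1377, 919, 1088, 1444 and 921 at E13 and 582, 725 and 1244 at E16 (log2 fold change -0.56, SE 0.19, adjusted p = 0.061). The groups overlapped through E16 array 95, without which Rrm1 was called at -0.70 (adjusted p = 0.010). Rrm2 fell by 0.60 relative to Rrm1 on the same arrays (adjusted exact p = 0.012 over the 8 contrasts), lower on every E16 array than on any E13 array. The contrast was chosen after the values were seen, which the adjustment does not cover. With the mean over a gene's probes this contrast was -0.54 (adjusted exact p = 0.052). A dim Rrm2 probe was at -0.27 (adjusted p = 0.50), beside another at -1.40 (adjusted p = 7.7e-05). The dimmer tested Rrm1 probe was at -0.26 (adjusted p = 0.53). Dut, which breaks down dUTP and so keeps uracil out of DNA, was at -0.49 (adjusted p = 0.047) and was called without E13 array 40, at -0.59 (adjusted p = 0.022). A dimmer Dut probe was at -0.73 (adjusted p = 0.11).

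Of the chromatin assembly genes, 1 of 2 was called. Chaf1a, the large subunit of chromatin assembly factor 1, which deposits histones on new DNA, read 539, 379, 446, 591 and 492 at E13 and 213, 276 and 334 at E16 (log2 fold change -0.86, SE 0.15, adjusted p = 0.0016), with no overlap. Its partner Chaf1b read 602, 426, 397, 494 and 422 at E13 and 333, 418 and 463 at E16, overlapping over most of the range (log2 fold change -0.17, SE 0.13, adjusted p = 0.41, 95% confidence interval -0.45 to 0.11). Chaf1a fell by 0.69 relative to Chaf1b (adjusted exact p = 0.012 over the 8 contrasts), with no overlap between stages. This pair was chosen after the values were seen, which the adjustment does not cover.

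**Figure D3:**
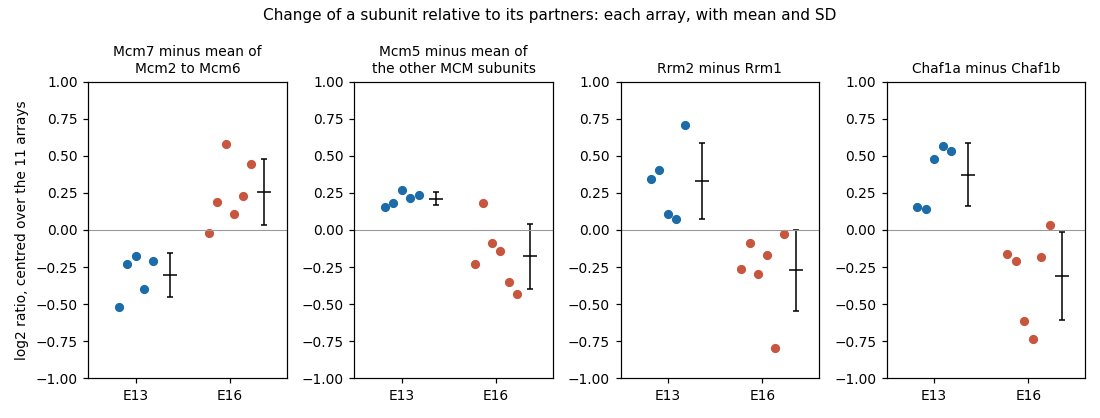
Log2 signal of a subunit minus that of its partners on the same array, centred over the 11 arrays, at E13 (blue, n = 5) and E16 (red, n = 6), with mean and SD. Mcm7 rose relative to the other MCM subunits by 0.56, while Mcm5 fell by 0.39, Rrm2 by 0.60 and Chaf1a by 0.69 relative to theirs. The contrasts were chosen after the values were seen.

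Within a stage, some arrays were high or low for many of these genes at once. E13 array 37 was the highest of its stage for 25 of the 37 genes and the lowest for 0, and array 40 was the lowest for 16. At E16, array 80 was the lowest for 15 and array 97 for 13. The median deviation of the 37 genes, from the midpoint of the stage means, was 0.54 on E13 array 37, 0.35 on array 64 and 0.16 to 0.24 on the other E13 arrays. At E16 it ran from -0.51 on array 80 to -0.15 on array 95. Array 80 also had the lowest summed IP marker signal (19530) and array 37 the highest (44873), and whether these belong together was not tested. Leaving out E13 array 37 left 13 genes lower, and leaving out E13 array 40 gave 19.

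**Figure D4:**
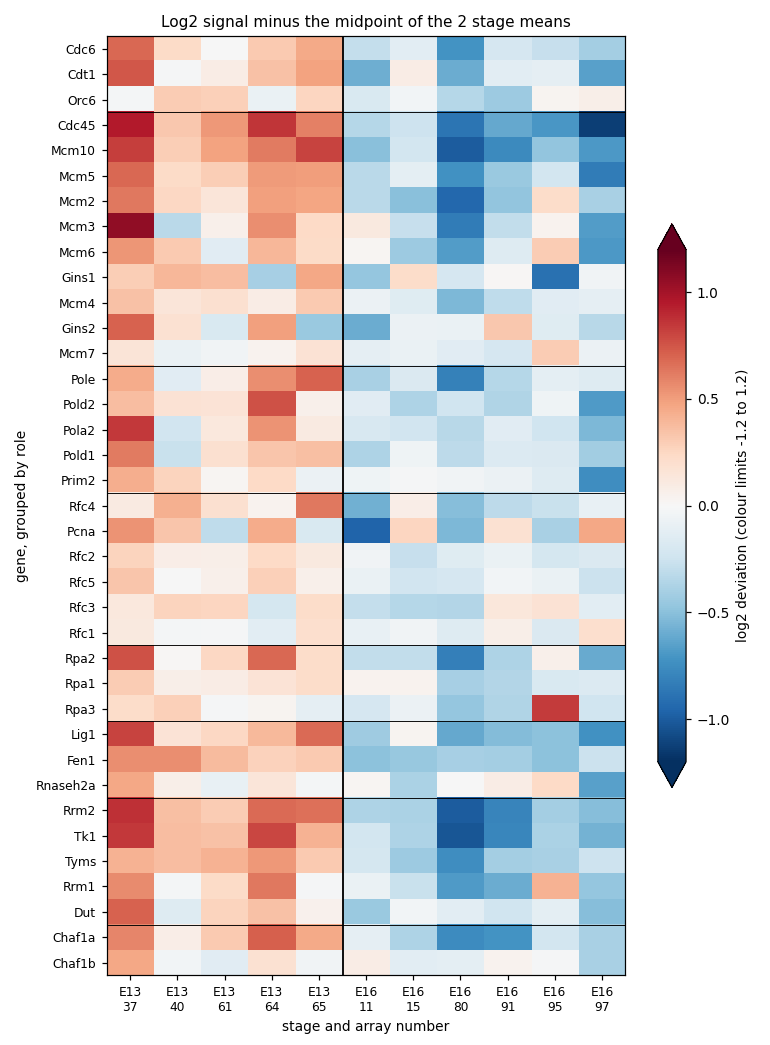
Log2 normalized signal of each of the 37 genes on each array, minus the midpoint of that gene's 2 stage means (red above, blue below; the vertical line parts E13 from E16, horizontal lines part the roles). The column of E13 array 37 is the reddest and that of E16 array 80 among the bluest, with median deviations of 0.54 and -0.51. The rows of Mcm7 and Rfc1 are among the palest.

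Related genes outside the group were called at different rates. Of 34 other replication genes tested, 10 were lower and 0 higher by limma (15 lower and 2 higher at an unadjusted p under 0.05, median -0.23). Among them, Uhrf1, which couples maintenance of DNA methylation to replication, was at -0.91 (SE 0.13, adjusted p = 2.6e-04) and the helicase gene Pif1 at -1.69 (SE 0.24, adjusted p = 2.8e-04). Of 32 other nucleotide synthesis genes, 1 was called lower and 1 higher by limma, with a median of -0.052, beside backgrounds of 6.09% and 5.17%. At an unadjusted p under 0.05, 7 were lower and 3 higher, beside backgrounds of 16% and 15.5%. The gene called lower was Mthfd2, a mitochondrial enzyme of folate metabolism (log2 fold change -0.70, SE 0.12, adjusted p = 0.0010). The gene called higher was Dctd, the dCMP deaminase that feeds Tyms (log2 fold change 0.68, SE 0.11, adjusted p = 9.5e-04). For Dctd, E13 arrays averaged 276 ± 19.9 (SD, n = 5) and E16 arrays 443 ± 52.0 (SD, n = 6), with no overlap.

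Of 19 E2F and S phase checkpoint genes, 6 were lower and 0 higher by limma (10 and 0 at an unadjusted p under 0.05, median -0.33), with the lowest adjusted p for the repressor E2f6 (log2 fold change -0.90, SE 0.096, adjusted p = 2.5e-05) and the activator E2f1 (log2 fold change -1.13, SE 0.15, adjusted p = 1.2e-04). The largest share was among G2/M genes, which act after replication: 11 of 12 were lower and 0 higher, also at an unadjusted p under 0.05, with a median of -1.52. Cdc20, an activator of the anaphase-promoting complex, and Birc5, a subunit of the chromosomal passenger complex, had the lowest adjusted p there (-1.57 and -1.65, adjusted p = 6.7e-06 and 8.5e-06). Array by array, the G2/M median was 0.60 to 0.93 above the midpoint at E13 and 0.26 to 1.06 below it at E16, a wider gap than that of the replication genes. The difference between the lists was not tested.

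**Figure D5:**
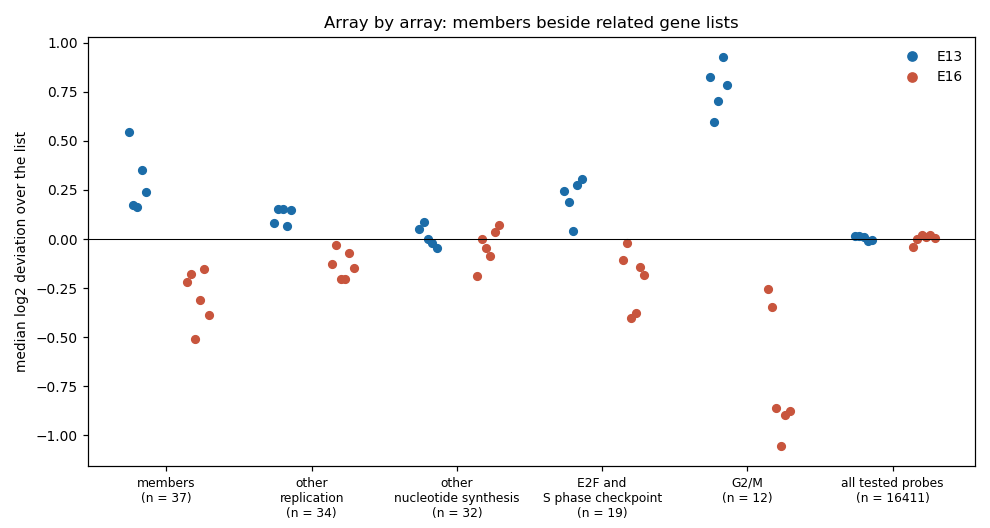
Median log2 deviation of each gene list on each array (E13 blue, E16 red), measured from the midpoint of each gene's stage means, with the number of tested genes below. The 37 members and the G2/M genes are above 0 on all 5 E13 arrays and below 0 on all 6 E16 arrays. So are the other replication genes and the E2F and S phase checkpoint genes, with smaller deviations on some arrays. The other nucleotide synthesis genes straddle 0 in both stages, and the median of all 16411 probes stays between -0.040 and 0.022.

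Markers of cell identity were tested in the same fit. Of 9 IP markers tested, 3 were lower at E16 and 0 higher by limma (7 and 0 at an unadjusted p under 0.05), with Dll1, a Notch ligand, at -1.24 (adjusted p = 3.2e-04). Of 8 radial glial markers, 3 were lower and 1 higher by limma (4 and 1 at an unadjusted p under 0.05). Vim was among the lower ones at -1.77 (adjusted p = 3.3e-05), and Slc1a3 was higher at 1.58 (adjusted p = 0.0032). Of 9 neuron markers, 0 were lower and 1 higher by limma (1 and 3 at an unadjusted p under 0.05), the higher one being Neurod6 at 0.98 (adjusted p = 0.023). Neurod2 was at 0.47 (adjusted p = 0.0079) and Dcx at 0.31 (adjusted p = 0.038), both under 1.5-fold. Rbfox3 went the other way, at -0.54 (adjusted p = 0.017), also under 1.5-fold. For Rbfox3, every E16 array was below every E13 array. Neurod2, Dcx and Rbfox3 were named after their values were seen. The share of cells of each kind was not measured, and its part in the fall of the replication genes was not tested. Without E13 array 64, which had the highest erythroid and interneuron sums, 15 of the 37 genes were lower, with Pold2 and Pole no longer among them and Gins1 and Rfc4 in addition. Without E16 array 97, the highest of its stage for both, 15 were lower, with Rfc4 in place of Pold2. The erythroid score as a covariate left 14.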

How the data were processed

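Illumina MouseWG-6 v2 arrays of 5 E13 and 6 E16 samples were used. Per the file headers and methods, the deposited signal is a background-subtracted bead intensity per probe, and the deposited detection p-value sets each probe against negative controls. The authors' own table holds log2 values of 15825 probes, detected on all arrays, with outlier probes removed and quantile-normalized, and served as an alternative. Scanner software was not given in the sources used here. No depth exists for arrays, so their number limits precision.

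The 16411 of 45281 probes detected on every one of the 11 arrays (detection p under 0.05) were quantile-normalized and put on the log2 scale, and stage was fitted with limma 3.58.1 (lmFit, eBayes with trend) in R 4.3.3, with Benjamini-Hochberg adjustment over all of them. A negative log2 fold change means lower at E16. The platform annotation gave 1 symbol for 34885 probes, several for 18 and none for 10378. Signals of different probes were ranked only to choose the probe of a gene and the uncalled genes to describe. Promoters came from RefSeq tables (GRCm38.p6); for genes with several start sites in the table its most upstream one was printed, which need not be the outer end of the annotated gene.

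Signal columns name a stage and an array number but no replicate number, so arrays were grouped by stage only. 22 control columns (11 signals, 11 detection p-values) match no sample of the series and were not used; the genes were therefore picked on the mutant arrays alone, and genotype, the second factor of the methods' model, was left out. Arrays outnumber the litters named, so some replicates share a litter, while an E13 and an E16 embryo cannot. Effects of litter and of stage therefore cannot be told apart. The p-values treat arrays as independent and measure the spread between these samples. Members, lists and tests were chosen with earlier results of these data known. Each called gene and the brightest uncalled gene of each role were given with values per array at E13 and a range and median at E16. Of each related list, up to 2 called genes each way of lowest adjusted p were named. Of each list of cell markers, the called gene each way of lowest adjusted p was named. Mcm7, Pcna and Rfc1 (values in the same form) and the subunit contrasts were added after the values were seen. Alternatives covered normalization, background, filters, test, covariates, probe choice and left-out arrays.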

Additional observations from a re-analysis of the deposited data

Results flagged for a closer look

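Single arrays far from the others of their stage were flagged for 5 genes by Dixon's criterion. Mcm7 read 1130 on E16 array 95, against 872 on the next highest E16 array. Rpa3 read 2790 on the same array, against 1490 on the next. Lig1 read 868 on E16 array 15, against 631 on the next. Prim2 was lowest on E16 array 97, at 123 against 186 on the nearest other array. Gins1 was lowest on E13 array 64, at 237 against 382. Chance flags about 1 in 20 groups, or 3.7 of the 74 combinations of gene and stage examined, so 5 flags are near that number.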

How the results depend on the processing

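Across 27 alternative settings the number of replication genes lower at E16 ran from 12 (array weights) to 22 (no fold threshold), and the number higher was 0 in each. Leaving out each array in turn gave 13 (without E13 array 37) to 19 (without E13 array 40) genes lower, 840 to 1025 probes lower and 675 to 863 probes higher. Xist detection as a covariate gave 13, no detection filter 13, the authors' values 15, and E13 array 40 and E16 array 80 left out together 18. Xist counted as detected on 2 of 5 E13 and 5 of 6 E16 arrays, so it was not balanced between the stages. The calls of Cdc45, Chaf1a, Fen1, Lig1, Mcm10, Mcm2, Mcm5, Rrm2, Tk1 and Tyms, 10 in all, held in all 27 settings, while Pold2 and Pole each lost theirs in 6, Cdt1 in 5, Cdc6 in 2 and Rpa2 in 1. Over all probes, no fold threshold gave 1544 lower and 1399 higher in place of 1000 and 848. Averaging the probes of a gene gave 641 and 477, counted over genes, of which fewer were tested. Rfc1 changed sign to 0.0033 with Xist detection as a covariate. With each array left out in turn, the contrast of Mcm3 with its partners ran from -0.22 to 0.051 and that of Mcm6 from -0.028 to 0.11, both across 0. Mcm3 changed sign without E13 array 37, and Mcm6 without E13 array 61, E16 array 91 or E16 array 95, and neither had passed the threshold. The causes were not tested.

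Sample labels number replicates 1 to 5 in both stages, but the sources used here do not say that equal numbers pair samples. Deviations of same-numbered samples correlated at -0.25, 0.0078, -0.062, 0.17 and -0.20, and a sample was closest to its own number in 1 of 5 cases. So few values cannot exclude a pairing. With the replicate block, fitted on the authors' table over the 10 samples numbered alike, 14 genes and 823 probes were lower and 683 probes higher, against 15, 947 and 838 without the block (a setting chosen after seeing the data). Dim probes limit Orc1, Gmnn, Pola1, Pole2 and Prim1, whose probe signals, rather than known RNA levels, lie near background.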
